A study of Mus musculus with 32 samples.

Results

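The genes described are 29 genes of cholesterol synthesis, uptake and export, taken as a list of symbols from the 20660 genes that the probes of a mouse array could be matched to. All 29 were found, through 38 probes, because 9 of them have a second probe. The levels come from one-colour Agilent arrays of superior mesenteric ganglia (SMG), sympathetic ganglia of the abdomen, and of spheres, which are floating cell clusters grown from such tissue. The 4 groups were 4 passaged sphere cultures (passaged 5 times, 2 arrays each), 8 primary sphere cultures (grown for 8 days), 8 TH-MYCN SMG and 8 WT SMG. Every mouse was on the 129+Ter/SvJcl background and 3 weeks old, and for spheres this is the age of the mouse that gave the tissue. TH-MYCN SMG and both kinds of sphere came from TH-MYCN hemizygotes (TH-MYCN+/-), in which a tyrosine hydroxylase promoter drives human MYCN in the sympathetic lineage. WT SMG came from wild-type mice. The model is a transgene in 1 lineage of the mouse, wild-type spheres were not analysed here, and the transgene's own level was not analysed here.

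Animal cells build cholesterol from acetyl-CoA. The mevalonate steps make farnesyl diphosphate, squalene is made from it and closed into lanosterol, and a further set of enzymes trims lanosterol to cholesterol. When sterol in the endoplasmic reticulum is low, Scap escorts the precursors of the SREBP transcription factors (Srebf1 and Srebf2) to the Golgi, where they are cut and released to switch on the synthesis genes, and Insig proteins hold Scap back when sterol is high. Cells send surplus cholesterol out through ABC transporters such as Abca1 and Abcg1, targets of the liver X receptors, of which Nr1h2 is one. In nerve tissue, myelinating glia are large producers of cholesterol and macrophages are strong exporters.

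A level below is the log2 of the processed signal of a spot minus the array's own 75th percentile, so that 0 is that percentile. A gene was called higher or lower at a Benjamini-Hochberg adjusted p under 0.05 in limma's moderated test, over all genes tested in that comparison. The 75th percentile of the signal ran from 323 to 539 on arrays of passaged spheres, 464 to 564 in primary spheres, 840 to 1358 in TH-MYCN SMG and 523 to 989 in WT SMG, and no spot was saturated. The 8 sympathetic neuron markers were well above background in every sample, with mean levels of 3.06 to 4.18 in passaged spheres, 3.27 to 3.75 in primary spheres, 5.44 to 6.12 in TH-MYCN SMG and 6.25 to 6.69 in WT SMG. TH-MYCN ganglion 1 stood apart. It had all 8 adrenal cortex markers well above background, at a mean of -1.25, whereas the other 7 TH-MYCN SMG had 4 of 8 and means from -4.90 to -4.48. The adrenal cortex makes steroid hormones from cholesterol, and the counts below are also given without that ganglion. Primary spheres fell into the 2 slides they were hybridised on. Glial markers averaged -1.59 to -0.76 on slide 3 and -2.85 to -2.64 on slide 4, and fibroblast markers -4.07 to -2.41 on slide 3 and -5.59 to -4.46 on slide 4.

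**Figure D1:**
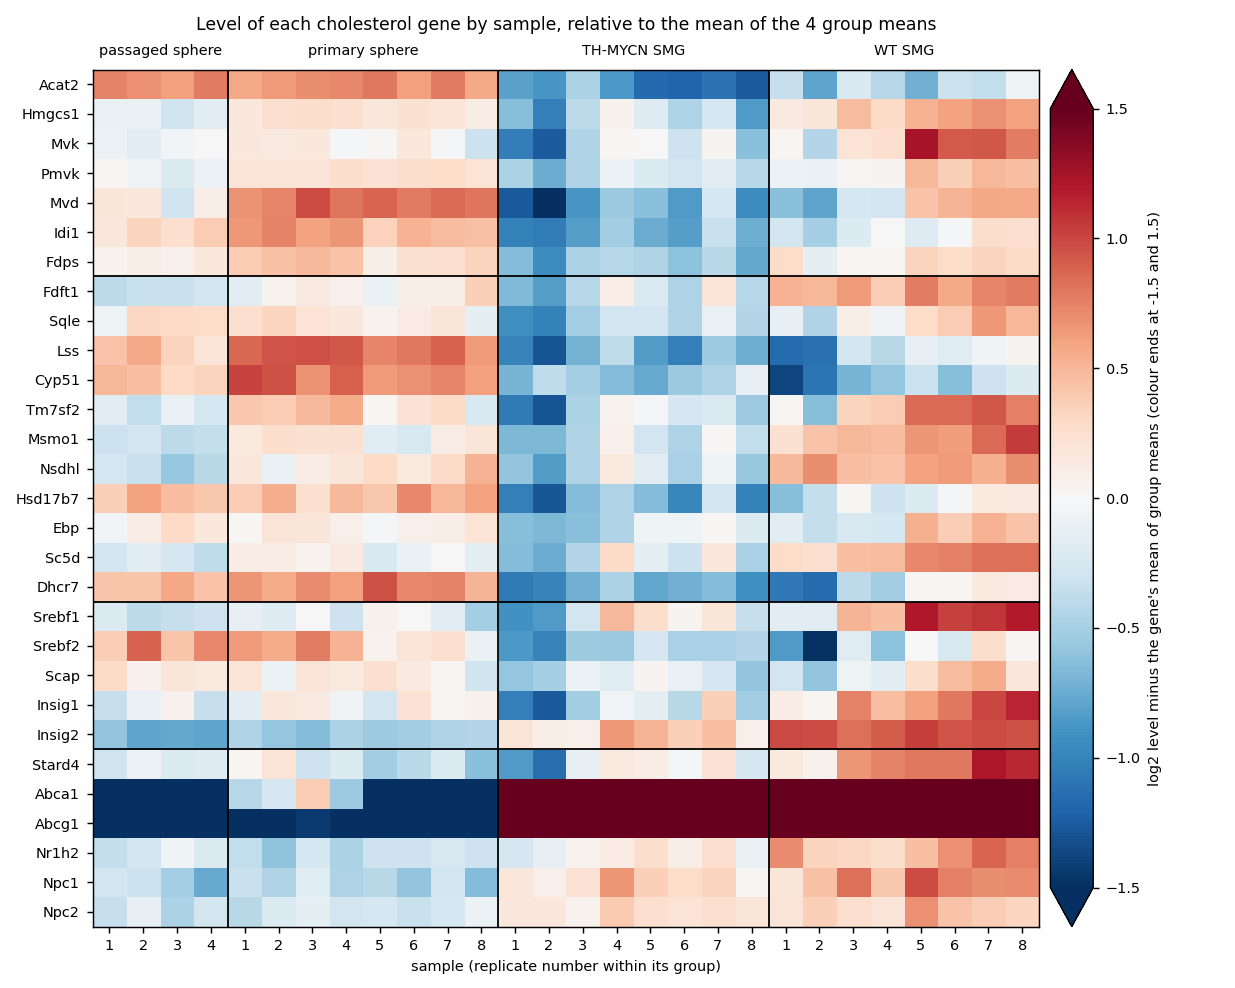
Each row is 1 gene and each column 1 sample, and the colour is the log2 level minus the mean of that gene's 4 group means, with colours ending at -1.5 and 1.5. Horizontal lines separate the mevalonate, squalene-to-sterol, sterol-sensing and transport genes. Most synthesis genes are blue in the TH-MYCN SMG, with ganglia 1 and 2 the darkest, and red in the primary spheres, while Abca1 and Abcg1 are dark red in all ganglia and dark blue in most spheres.

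The first comparison asked how TH-MYCN SMG differ from WT SMG at 3 weeks. Most of the pathway was lower in the TH-MYCN ganglia, while the exporter gene Abca1 was higher. Of the 29 genes, 22 were called lower and 1 higher, where 43.8% of the 15826 genes tested were called lower and 21.9% higher. The lower genes were all 7 mevalonate genes, 9 of the 11 squalene-to-sterol genes, Srebf1, Insig1, Insig2, Stard4, Nr1h2 and Npc1. The median difference of the 18 synthesis genes was -0.72 on the log2 scale and that of all 29 genes -0.65, beside -0.22 over all genes tested. Lss, Cyp51, Srebf2, Scap, Abcg1 and Npc2 were not called.

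With the median gene set to no difference, 18 genes were called lower and 1 higher. Of the 15826 genes tested 4149 were called lower and 5165 higher, so that 55.5% of all calls were higher, against 33.4% as reported. Without TH-MYCN ganglion 1, 20 genes were called lower and 1 higher, where 6630 and 3315 of the 15826 genes tested were. The 2 slides that hold both kinds of ganglion differed in WT SMG. The mean of the 18 synthesis genes was 2.14 to 2.86 in TH-MYCN SMG and 2.78 to 3.16 in WT SMG on slide 1, and 2.48 to 2.86 in TH-MYCN SMG and 3.43 to 3.55 in WT SMG on slide 2. Fitted within slide 1, 14 genes were called lower, and within slide 2, 25 were, each time with Abca1 as the 1 called higher. Blocking on slide gave 24 lower, with Lss and Scap added. Of the 15826 genes tested, 4725 were called lower within slide 1, 6705 within slide 2 and 7543 when blocked on slide. Calls for Dhcr7 and Ebp were lost under quantile normalization, with adjusted p of 0.0506 and 0.0817.

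Markers of several cell types moved with the genotype. Of 13 Schwann and satellite glia markers, 11 were called lower, and their mean level was 0.58 to 1.62 in TH-MYCN SMG and 1.80 to 2.15 in WT SMG. Of 11 macrophage markers 8 were called higher and 2 lower, with means of 0.98 to 1.72 in TH-MYCN SMG and 0.44 to 1.15 in WT SMG. Of 8 sympathetic neuron markers 7 were called lower and 1 higher, and 7 of 8 fibroblast markers and 5 of 7 endothelial markers were called lower. All 8 cell division markers were called higher, with means of 0.59 to 2.76 in TH-MYCN SMG and -5.12 to -2.91 in WT SMG. In a WT ganglion 4 to 7 of these 8 were well above background. TH-MYCN ganglia 1 and 2, with the lowest synthesis means of their group at 2.28 and 2.14, had the lowest glial means at 0.62 and 0.58 and the highest cell division means at 2.50 and 2.76. The part of these shifts in the result was not tested, and in whole tissue fewer cells of a type and less RNA per cell cannot be told apart.

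**Figure D2:**
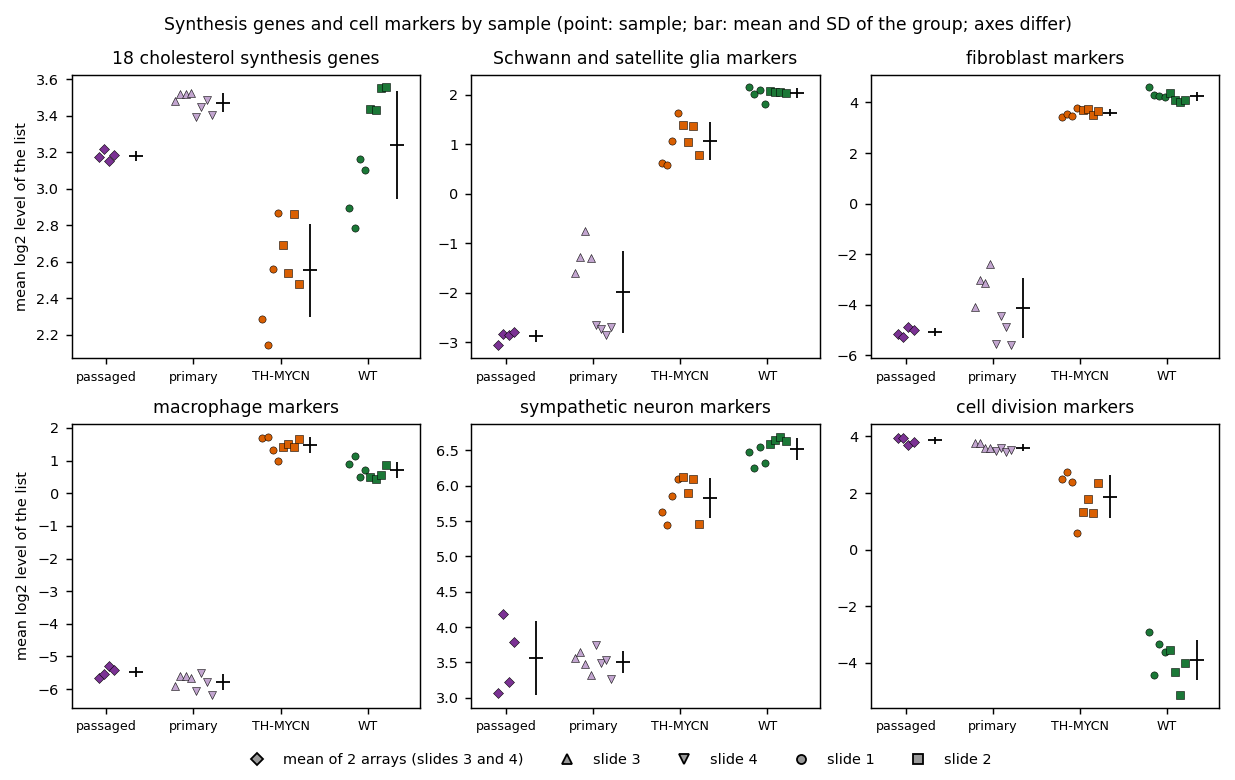
Each point is 1 sample, plotted as the mean log2 level of a list of genes, with the slide shown by the marker shape and the group mean and SD as a bar beside the points. The synthesis genes run from 3.39 to 3.52 in primary spheres and from 2.14 to 2.86 in TH-MYCN SMG, and glial, fibroblast and macrophage markers are lower in both kinds of sphere than in every ganglion.

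The second comparison set primary spheres against the TH-MYCN SMG. Synthesis genes were higher in the spheres, and the export genes Abca1 and Abcg1 were far lower. Of the 29 genes 20 were called higher and 6 lower, where 50.3% of the 15637 genes tested were called higher and 32.9% lower. Higher calls covered all 7 mevalonate genes, 10 of the 11 squalene-to-sterol genes, Srebf2, Scap and Insig1, and the lower calls Insig2, Abca1, Abcg1, Nr1h2, Npc1 and Npc2. Sc5d, Srebf1 and Stard4 were not called. The median difference was 0.71 for the 18 synthesis genes and 0.48 for the 29, beside 0.27 over all genes tested.

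Several of these rises depended on the scaling. With the median gene set to no difference 14 genes were called higher and 6 lower. Of the 15637 genes tested 5898 were called higher and 6312 lower, with 48.3% of all calls higher, against 60.4% as reported. Quantile normalization left 11 called higher, where 6679 of the 15637 genes tested were, a larger share than among the 29 genes. The median difference was then 0.30 for the 18 synthesis genes, beside 0.08 over all genes tested. Hmgcs1, Mvk, Pmvk, Msmo1, Ebp and Scap then had small differences below 0, none of them called. Fdps, Fdft1 and Sqle stayed above 0 without a call. Without TH-MYCN ganglion 1, 19 genes were called higher and 6 lower, where 7822 and 5170 of the 15637 genes tested were. Each slide holds 1 group here, so that slide and group cannot be told apart, and fits by slide do not separate them. Primary spheres of slide 3 alone gave 18 genes higher and those of slide 4 alone 16, with 6 lower both times. Over all 15637 genes tested, 7474 were called higher and 4908 lower with slide 3 alone. With slide 4 alone 7269 were called higher and 4893 lower. All 11 macrophage markers, all 8 fibroblast markers and 12 of 13 glial markers were called lower, with macrophage means of -6.17 to -5.50 in primary spheres and 0.98 to 1.72 in TH-MYCN SMG. Of the 8 neuron markers 6 were called lower and 1 higher, and of 7 endothelial markers 6 were called lower and 1 higher. All 8 cell division markers were called higher, with means of 3.45 to 3.78 in primary spheres and 0.59 to 2.76 in TH-MYCN SMG. Of the macrophage markers, C1qa, C1qc, Adgre1, Lyz2, Cd14 and Mrc1 were not well above background on any array of primary spheres. A marker kept through the TH-MYCN SMG alone could only be called lower, so that these counts are no test of direction. In a primary culture 3 to 4 of 11 macrophage, 2 to 7 of 8 fibroblast and 8 to 11 of 13 glial markers were well above background. The part of these shifts in the result was not tested.

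The third comparison set spheres passaged 5 times against primary spheres, as unpaired groups. The genes that were called were all lower, each by less than 2-fold. The 10 called genes were Hmgcs1, Pmvk and Mvd of the mevalonate steps, Fdft1, Lss, Cyp51, Tm7sf2, Msmo1 and Nsdhl of the later steps, and Insig2, where 6.43% of the 14236 genes tested were called lower and 5.13% higher. None of the 29 was called higher. The median difference was -0.28 for the synthesis genes and -0.22 for the 29, beside 0.02 over all genes tested.

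Passaged spheres had a narrow range of synthesis means, 3.15 to 3.22, below the 3.39 to 3.52 of primary spheres. Within slide 3, 14 genes were called lower, where 757 of 14224 genes tested were. Within slide 4 it was 3, where 487 of 14234 were. A fit blocked on slide called 14 lower, adding Idi1, Fdps, Sc5d and Dhcr7, where 1099 of 14222 genes tested were. Leaving out passaged culture 4 lowered the count to 6, where 514 of 14236 genes tested were called lower. A fit over all 4 groups gave 4, where 992 of 16097 were. Under quantile normalization 13 were called lower, where 1049 of 14236 genes tested were, and 32.4% of all calls were higher, against 44.4% as reported. Of 11 glial markers tested 4 were called lower and 1 higher, with means of -3.05 to -2.80 in passaged spheres and -2.85 to -0.76 in primary spheres. Their part in the result was not tested. TH-MYCN SMG enter comparisons 1 and 2 and primary spheres comparisons 2 and 3, so that the differences are not independent of each other.

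**Figure D3:**
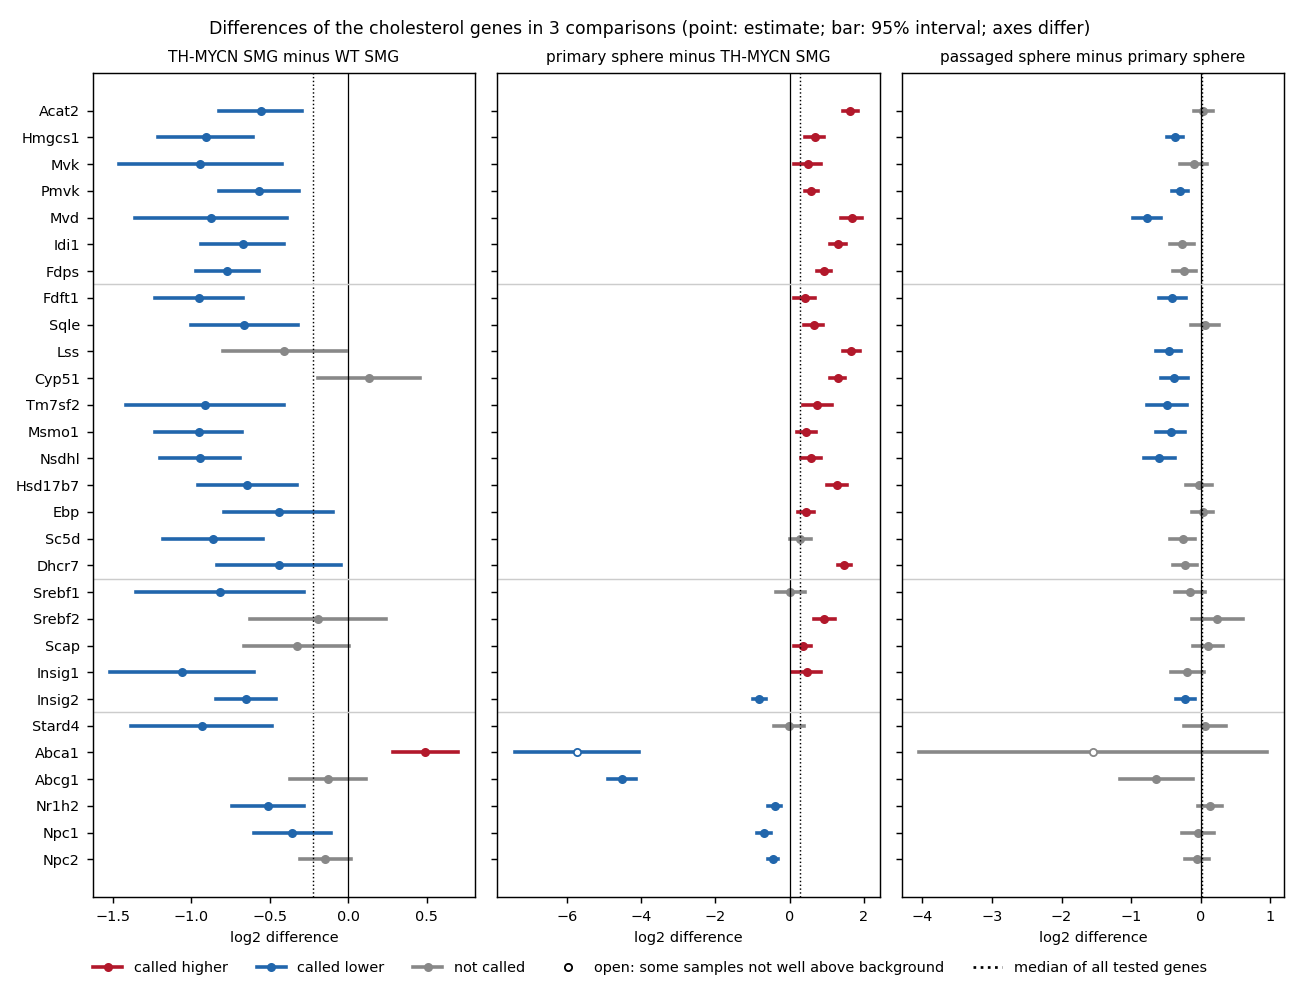
Points are the log2 differences of the 29 genes with 95% intervals, coloured by the call, and dotted lines mark the median of all genes tested at -0.22, 0.27 and 0.02. The axes differ between panels. Open points mark Abca1 where it was not well above background in 4 of 8 primary and 3 of 4 passaged cultures, so that its position there is no measured size. In the second panel Abcg1 lies at -4.52, and Abca1 lies with it away from the other genes.

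The promoters of 6 genes that carry these differences are shown, because SREBP proteins are known to bind sterol regulatory elements close to the start site together with NF-Y. The windows run from 250 bases before to 50 bases after the start annotated by RefSeq in GRCm38.p6, are written in the direction of the gene, and have motif letters in capitals. Capitals mark TCACNCCAC (sterol regulatory element letters), CCAAT (NF-Y letters) and CACGTG (E-box), searched on both strands. In the windows of these genes no motif overlapped another. The Hmgcs1 window is chr13:119690101-119690400 on the plus strand, that of Mvd chr8:122443373-122443672 on the minus strand and that of Lss chr10:76531355-76531654 on the plus strand. The Msmo1 window is chr8:64733529-64733828 on the minus strand, that of Insig1 chr5:28071162-28071461 on the plus strand and that of Abca1 chr4:53159846-53160145 on the minus strand.
Hmgcs1: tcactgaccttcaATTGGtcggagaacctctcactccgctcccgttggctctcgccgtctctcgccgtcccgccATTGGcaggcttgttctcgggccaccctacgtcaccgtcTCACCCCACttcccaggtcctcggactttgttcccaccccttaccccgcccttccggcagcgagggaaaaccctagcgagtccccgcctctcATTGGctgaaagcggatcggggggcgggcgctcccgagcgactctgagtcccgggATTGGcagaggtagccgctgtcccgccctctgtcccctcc
Mvd: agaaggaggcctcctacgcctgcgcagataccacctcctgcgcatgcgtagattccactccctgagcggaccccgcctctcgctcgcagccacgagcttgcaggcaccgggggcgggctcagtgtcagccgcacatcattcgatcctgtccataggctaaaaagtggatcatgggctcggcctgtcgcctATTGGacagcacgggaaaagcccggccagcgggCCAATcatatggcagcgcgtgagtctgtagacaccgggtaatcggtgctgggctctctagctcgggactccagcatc
Lss: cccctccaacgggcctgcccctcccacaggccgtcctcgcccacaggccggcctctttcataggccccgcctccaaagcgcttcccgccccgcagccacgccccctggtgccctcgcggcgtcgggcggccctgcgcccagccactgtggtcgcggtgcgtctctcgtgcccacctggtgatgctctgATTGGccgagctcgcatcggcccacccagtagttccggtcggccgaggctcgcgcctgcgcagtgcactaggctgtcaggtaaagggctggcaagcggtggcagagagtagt
Msmo1: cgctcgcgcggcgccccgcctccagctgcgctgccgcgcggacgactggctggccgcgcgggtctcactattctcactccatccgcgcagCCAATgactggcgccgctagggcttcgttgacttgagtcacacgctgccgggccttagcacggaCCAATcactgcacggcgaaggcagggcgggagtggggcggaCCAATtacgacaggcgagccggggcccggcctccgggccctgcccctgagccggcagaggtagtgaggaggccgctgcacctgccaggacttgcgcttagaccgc
Insig1: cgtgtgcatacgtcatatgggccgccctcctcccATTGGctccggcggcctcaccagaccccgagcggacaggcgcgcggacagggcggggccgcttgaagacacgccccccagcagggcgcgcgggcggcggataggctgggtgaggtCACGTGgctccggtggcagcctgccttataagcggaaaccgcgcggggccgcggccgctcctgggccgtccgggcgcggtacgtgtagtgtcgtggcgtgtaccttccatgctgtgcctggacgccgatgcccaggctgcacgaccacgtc
Abca1: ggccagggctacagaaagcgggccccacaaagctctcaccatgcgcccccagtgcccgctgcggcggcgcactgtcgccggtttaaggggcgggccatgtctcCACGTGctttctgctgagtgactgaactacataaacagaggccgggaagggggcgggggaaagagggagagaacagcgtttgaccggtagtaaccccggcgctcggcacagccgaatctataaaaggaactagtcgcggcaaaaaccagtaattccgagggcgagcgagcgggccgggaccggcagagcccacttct
Of the 29 genes, 23 had 1 or more windows in the table, 31 windows in all, and Fdps, Fdft1, Sqle, Stard4, Abcg1 and Npc1 had none. CCAAT was found in 20 of the 31 windows, belonging to 19 of the 23 genes, and in 37.4% of the 32851 windows of all genes. The E-box letters were in 7 of the 31 and in 7.15% of all windows. Both Scap windows hold the same E-box, since they overlap. The sterol regulatory element letters were found in 1 of the 31 windows, that of Hmgcs1, and in 1.24% of all windows. Only that string of 9 letters was searched, so that an element spelled otherwise would be missed. These matches describe letters and not bound sites.

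**Figure D4:**
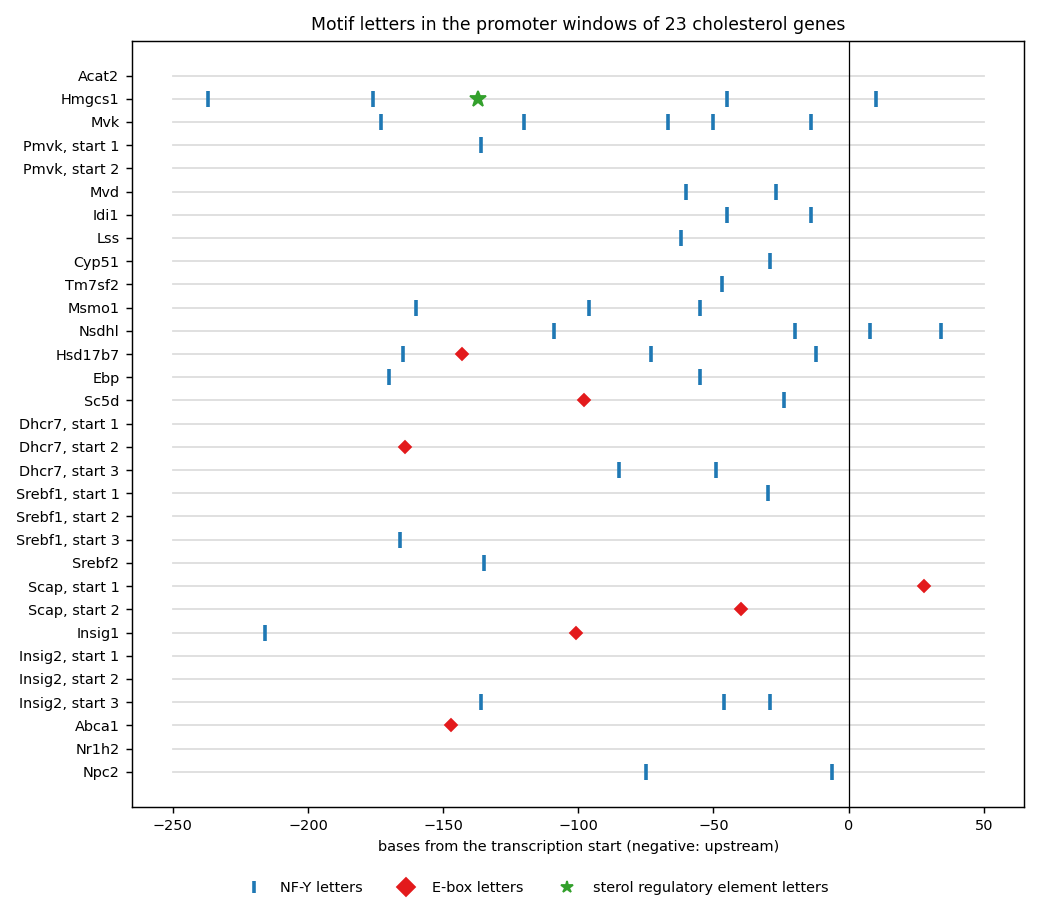
Marks show where each motif begins in the 31 windows of 23 genes, in bases from the annotated start, with genes of several starts given a row each. NF-Y marks stand in 20 windows, mostly before the start, and the single sterol regulatory element mark stands at -137 in the window of Hmgcs1.

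Among the mevalonate genes, Hmgcs1 encodes the synthase that makes HMG-CoA. Its level was 6.21, 6.21, 6.01 and 6.16 in the 4 passaged cultures and 6.43, 6.53 and 6.58 (lowest, median and highest) in primary spheres. It was 5.29, 5.88 and 6.38 in TH-MYCN SMG and 6.45, 6.81 and 7.00 in WT SMG. No TH-MYCN ganglion reached the lowest WT ganglion, every primary culture lay above every TH-MYCN ganglion, and every passaged culture lay below every primary one. Hmgcs1 was 1.88-fold lower in TH-MYCN SMG (log2 difference -0.91 ± 0.14, SE, n = 8 each, limma adjusted p = 5.3e-05). The rise in primary spheres was 0.67 ± 0.12 (adjusted p = 9.17e-05) and turned to -0.18, not called, under quantile normalization. After passage the gene was 1.29-fold lower (adjusted p = 0.00236).

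Mvd, the decarboxylase that makes isopentenyl diphosphate, had the largest rise of the 29 genes in primary spheres and the largest called fall after passage. Passaged spheres had 2.14, 2.11, 1.66 and 2.06 and primary spheres 2.63, 2.76 and 2.94. TH-MYCN SMG had 0.45, 1.10 and 1.69 and WT SMG 1.17, 2.04 and 2.53. The ganglia overlapped, while all primary cultures lay above all TH-MYCN SMG and all passaged cultures below all primary ones. The limma difference between TH-MYCN SMG and WT SMG was -0.87 ± 0.23 (adjusted p = 0.00317). Mvd was 3.18-fold higher in primary spheres (log2 difference 1.67 ± 0.14, adjusted p = 7.83e-09) and 1.71-fold lower after passage (adjusted p = 0.000655).

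Idi1, which turns isopentenyl diphosphate into its isomer, was also highest in primary spheres. Its level was 4.35, 4.51, 4.43 and 4.56 in passaged spheres and 4.52, 4.73 and 4.92 in primary spheres, against 3.12, 3.39 and 3.84 in TH-MYCN SMG and 3.67, 4.07 and 4.44 in WT SMG. Every primary culture lay above all ganglia of both genotypes, and the ganglia overlapped. The limma difference was -0.67 ± 0.12 in TH-MYCN SMG (adjusted p = 0.00023), and primary spheres were 2.48-fold higher than TH-MYCN SMG (adjusted p = 2.46e-09). After passage the difference of -0.27 did not pass the threshold (adjusted p = 0.0509), but it did when blocked on slide (adjusted p = 0.0328) and under 10 of 24 alternatives in all.

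The other mevalonate genes were Acat2 (acetyl-CoA acetyltransferase), Mvk and Pmvk (the mevalonate kinases) and Fdps (farnesyl diphosphate synthase). Their differences between TH-MYCN SMG and WT SMG ran from -0.94 for Mvk to -0.56 for Acat2. Between primary spheres and TH-MYCN SMG they ran from 0.48 for Mvk to 1.64 for Acat2, which was 3.11-fold higher. The rise of Fdps, 0.92, shrank to 0.18 and was not called under quantile normalization (adjusted p = 0.118). After passage its difference of -0.24 was not called (adjusted p = 0.0593), but it was when blocked on slide (adjusted p = 0.0202). Acat2 was not called after passage, with a difference of 0.03 and a 95% interval of -0.10 to 0.17. A second Mvk probe was also called lower in TH-MYCN SMG but gave no call in either sphere comparison, and both Pmvk probes were called in all 3 comparisons.

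**Figure D5:**
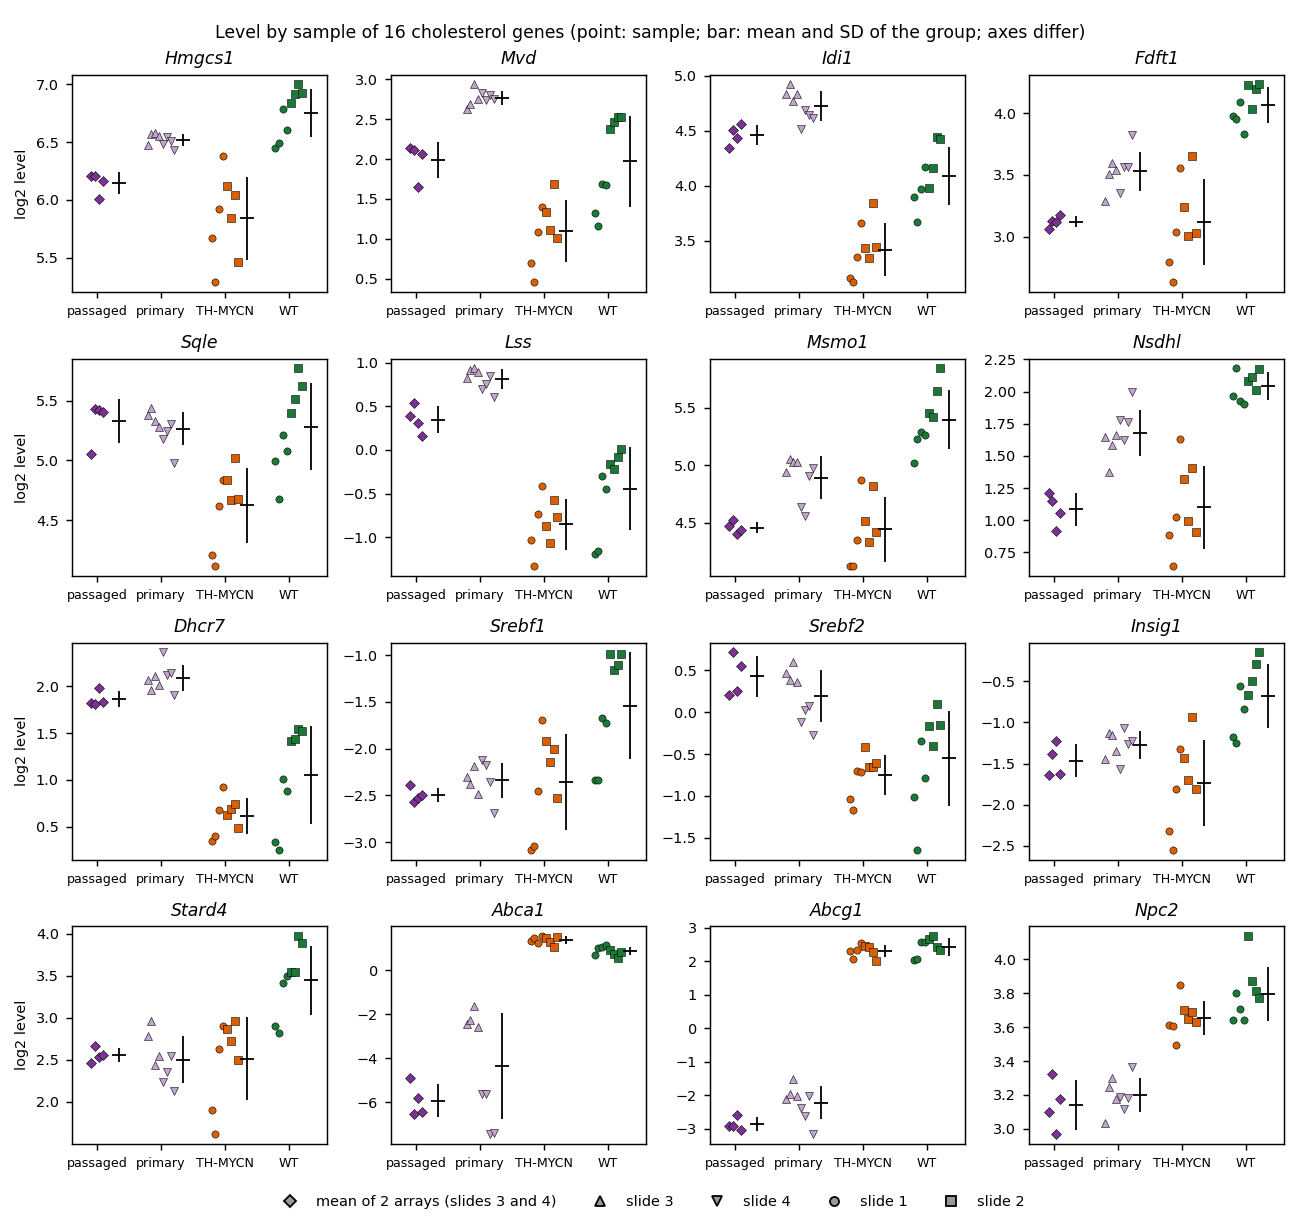
Points are the log2 levels of single samples, with the slide shown by the marker shape and the group mean and SD as a bar. Axes differ between genes, since levels of different probes are not comparable. Mvd, Idi1, Lss and Dhcr7 are highest in the primary spheres, while Abca1 and Abcg1 are above 0 in every ganglion and below 0 in every sphere culture.

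Fdft1, or squalene synthase, commits farnesyl diphosphate to sterols. Passaged spheres had 3.06, 3.12, 3.12 and 3.18 and primary spheres 3.29, 3.55 and 3.82. TH-MYCN SMG had 2.63, 3.03 and 3.65 and WT SMG 3.83, 4.06 and 4.23. No TH-MYCN ganglion reached the WT range, primary spheres overlapped the TH-MYCN SMG, and every passaged culture lay below every primary one. The difference in TH-MYCN SMG was -0.95 ± 0.13 (limma adjusted p = 1.86e-05). The rise of 0.41 in primary spheres was called (adjusted p = 0.00888) but not with the median gene set to no difference, where it was 0.14 (adjusted p = 0.345). After passage the gene was 1.33-fold lower (adjusted p = 0.0126), and a second probe, called in the other comparisons, was not called there.

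Sqle, the squalene epoxidase, oxidises squalene before the ring is closed. Its level was 5.05, 5.43, 5.42 and 5.40 in passaged spheres and 4.98, 5.29 and 5.44 in primary spheres, against 4.11, 4.67 and 5.02 in TH-MYCN SMG and 4.67, 5.31 and 5.77 in WT SMG. The ganglia overlapped, and 1 primary culture lay within the range of TH-MYCN SMG. The difference in TH-MYCN SMG was -0.66 ± 0.16 (limma adjusted p = 0.002). The rise of 0.64 in primary spheres (adjusted p = 9.41e-05) shrank to 0.04 under quantile normalization. After passage the difference was 0.06 with an interval of -0.15 to 0.27, not called.

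Lss closes the ring to lanosterol, and Cyp51 removes a methyl group from it. For Lss, passaged spheres had 0.40, 0.53, 0.30 and 0.16 and primary spheres 0.61, 0.84 and 0.94. TH-MYCN SMG had -1.33, -0.82 and -0.41 and WT SMG -1.19, -0.26 and 0.01. Every primary culture lay above all 16 ganglia, and every passaged culture lay below every primary one but above all 16 ganglia. The difference of -0.41 in TH-MYCN SMG was not called (limma adjusted p = 0.0626), but blocking on the shared slide gave a call (adjusted p = 0.0386), as did slide 2 by itself (-0.71, adjusted p = 0.00168). Lss was 3.16-fold higher in primary spheres (adjusted p = 5.06e-10) and 1.38-fold lower after passage (adjusted p = 0.00549). Cyp51 gave the 1 positive estimate among the 18 synthesis genes in TH-MYCN SMG, 0.13 with an interval of -0.19 to 0.46, not called. It was 2.45-fold higher in primary spheres (adjusted p = 1.36e-09) and 1.3-fold lower after passage (adjusted p = 0.0191).

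Msmo1 and Nsdhl act in turn on the methyl groups of the ring. For Msmo1, passaged spheres had 4.47, 4.52, 4.40 and 4.44 and primary spheres 4.56, 4.96 and 5.06. TH-MYCN SMG had 4.12, 4.39 and 4.87 and WT SMG 5.02, 5.36 and 5.84. The ganglia did not overlap (log2 difference -0.95 ± 0.13, limma adjusted p = 1.84e-05), primary spheres lay within or just above the TH-MYCN range, and passaged spheres lay below every primary culture. The rise of 0.45 in primary spheres turned to -0.12, not called, under quantile normalization.

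For Nsdhl, passaged spheres had 1.21, 1.15, 0.91 and 1.06 and primary spheres 1.38, 1.66 and 2.00. TH-MYCN SMG had 0.64, 1.01 and 1.63 and WT SMG 1.90, 2.05 and 2.18. Again the ganglia did not overlap, and no passaged culture reached the primary range. The difference in TH-MYCN SMG was -0.94 ± 0.12 (limma adjusted p = 8.36e-06), that in primary spheres 0.58 (adjusted p = 0.000484), and passaged spheres were 1.51-fold lower (adjusted p = 0.00448). A second probe was called in the same direction in the first 2 comparisons and missed the threshold after passage (-0.41, adjusted p = 0.073).

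Dhcr7 catalyses a final reduction to cholesterol. Its level was 1.82, 1.82, 1.99 and 1.83 in passaged spheres and 1.91, 2.09 and 2.36 in primary spheres, against 0.35, 0.65 and 0.92 in TH-MYCN SMG and 0.25, 1.22 and 1.54 in WT SMG. The 2 lowest WT ganglia lay below every TH-MYCN ganglion, and all primary cultures lay above all ganglia. The fall in TH-MYCN SMG was at the threshold (difference -0.44, limma adjusted p = 0.0479) and was -0.03 within slide 1, not called. Primary spheres were 2.78-fold higher than TH-MYCN SMG (adjusted p = 1.18e-10), and the difference of -0.22 after passage was not called (adjusted p = 0.0904) except when blocked on slide (adjusted p = 0.0441).

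Of the remaining sterol enzymes, Tm7sf2 (a sterol reductase), Hsd17b7 (a ketosteroid reductase), Ebp (a sterol isomerase) and Sc5d (a desaturase) were all called lower in TH-MYCN SMG, from -0.91 for Tm7sf2 to -0.44 for Ebp. Hsd17b7 was 2.42-fold higher in primary spheres than in TH-MYCN SMG, and its second probe was also called higher (0.68). Sc5d differed by 0.28 there (adjusted p = 0.0607), not called. After passage Tm7sf2 was the 1 of these 4 genes called, at -0.49 (adjusted p = 0.0333). It lost the call under 11 of 24 alternatives, slide 4 by itself among them (-0.25, adjusted p = 0.237). A fit blocked on slide also called Sc5d after passage (-0.26, adjusted p = 0.0275).

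Of the sensing genes, Insig1 is itself a known SREBP target and had the largest fall of the 29 genes in TH-MYCN SMG. Passaged spheres had -1.63, -1.39, -1.22 and -1.63 and primary spheres -1.56, -1.25 and -1.07. TH-MYCN SMG had -2.55, -1.76 and -0.93 and WT SMG -1.25, -0.61 and -0.15. The highest TH-MYCN ganglion lay above the 2 lowest WT ganglia, and all primary cultures lay inside the range of TH-MYCN SMG. Insig1 was 2.08-fold lower in TH-MYCN SMG (log2 difference -1.06 ± 0.22, limma adjusted p = 0.000511). Its rise of 0.46 in primary spheres (adjusted p = 0.0295) was 0.19, not called, with the median gene set to no difference (adjusted p = 0.359). A fit with slide as a random block, since no slide holds both groups, also ended that call (adjusted p = 0.0695). Insig1 was not called after passage (adjusted p = 0.259).

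Insig2, the related retention protein, was called lower in all 3 comparisons by its main probe, though after passage the call was lost under 12 of 24 alternatives. Passaged spheres had 2.17, 1.98, 2.00 and 1.98 and primary spheres 2.12, 2.28 and 2.33. TH-MYCN SMG had 2.84, 3.05 and 3.42 and WT SMG 3.59, 3.73 and 3.80. Neither the 2 kinds of ganglion nor primary spheres and TH-MYCN SMG overlapped, whereas passaged and primary spheres did. The limma differences were -0.65 in TH-MYCN SMG (adjusted p = 1.62e-05), -0.82 in primary spheres (adjusted p = 1.67e-07) and -0.22 after passage (adjusted p = 0.0362). The alternatives without a call after passage include slide 3 alone (adjusted p = 0.134), slide 4 alone (adjusted p = 0.0873), the replicate block (adjusted p = 0.13) and 7 fits with 1 culture left out. A second probe gave -0.80 (called), -0.25 and -0.07 (neither called).

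Srebf2 encodes the SREBP that chiefly drives sterol synthesis. Its level was 0.21, 0.72, 0.25 and 0.56 in passaged spheres and -0.27, 0.22 and 0.60 in primary spheres, against -1.17, -0.68 and -0.42 in TH-MYCN SMG and -1.65, -0.37 and 0.10 in WT SMG. The ganglia overlapped widely and were not called (-0.19, limma adjusted p = 0.419), and every primary culture lay above every TH-MYCN ganglion. For TH-MYCN SMG against WT SMG, slide 2 by itself gave a call (-0.43, adjusted p = 0.0132) and slide 1 did not (0.05, adjusted p = 0.891). Primary cultures of slide 3 averaged 0.46 and those of slide 4 -0.07. For this probe primary spheres differed from TH-MYCN SMG by 0.94 ± 0.13 (adjusted p = 5.7e-06), whereas a second Srebf2 probe was called lower there (-0.38, adjusted p = 0.00434), so that the direction depends on the probe. Neither probe was called after passage.

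Srebf1, whose products act on fatty acid and sterol genes, had -2.39, -2.57, -2.53 and -2.49 in passaged spheres and -2.69, -2.33 and -2.12 in primary spheres. TH-MYCN SMG had -3.09, -2.30 and -1.69 and WT SMG -2.34, -1.42 and -0.98. The ganglia overlapped, and the 4 WT ganglia of slide 2 were the highest of all. The difference in TH-MYCN SMG was -0.82 ± 0.25 (limma adjusted p = 0.00934), and it was not called within slide 1 (adjusted p = 0.18) or with the median gene set to no difference (adjusted p = 0.0516). Neither sphere comparison was called. Scap was called higher in primary spheres, at 0.35, a difference that became -0.04 under quantile normalization. In TH-MYCN SMG its difference of -0.33 was not called (adjusted p = 0.0753), but a fit blocked on slide called it (adjusted p = 0.033), as did slide 2 by itself (-0.60, adjusted p = 0.00945).

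Among transport genes, Stard4 carries cholesterol between membranes and is a known SREBP target. Passaged spheres had 2.46, 2.66, 2.54 and 2.56 and primary spheres 2.13, 2.50 and 2.96. TH-MYCN SMG had 1.62, 2.67 and 2.97 and WT SMG 2.82, 3.52 and 3.97. A few TH-MYCN ganglia reached the lower end of the WT range, and primary spheres lay inside the range of TH-MYCN SMG. The fall in TH-MYCN SMG was -0.93 ± 0.21 (limma adjusted p = 0.00115), and a second probe gave -0.96. Neither sphere comparison was called, and the difference of primary spheres from TH-MYCN SMG was -0.01 with an interval of -0.41 to 0.39.

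Abca1 moves cholesterol out of cells onto lipid-poor apolipoprotein. Passaged spheres had -4.92, -6.55, -5.79 and -6.43, of which 1 was well above background. Primary spheres of slide 3 had -2.44, -2.27, -1.64 and -2.56, all well above background, and those of slide 4 had -5.60, -5.61, -7.45 and -7.40, none of them so. All sphere cultures lay far below the ganglia, and primary spheres of the 2 slides did not overlap.

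Abca1 was at 1.04, 1.40 and 1.54 in TH-MYCN SMG and 0.57, 0.87 and 1.17 in WT SMG. The genotypes overlapped slightly, and the difference of 0.49 ± 0.10 was the 1 called rise of the list (1.41-fold, limma adjusted p = 0.000392), lost in a fit over all 4 groups (adjusted p = 0.503). Primary spheres of slide 3 differed from TH-MYCN SMG by -3.59 on the log2 scale. For the slide 4 cultures, which were not well above background, only a bound can be given, and they were at least 116-fold lower than TH-MYCN SMG. Taking all 8 primary cultures, Abca1 averaged at least 37.5-fold lower than in TH-MYCN SMG. The limma call (adjusted p = 3.83e-06) rests on the measured values, including those not well above background, and not on that bound. The bounds take, for each culture not well above background, the higher of the dimmest level that counted as well above background in it and the gene's own level. After passage the gene was not called (adjusted p = 0.4), and no size is given there, since most values compared were not well above background. Of 23 alternatives 2 called it lower, slide 3 by itself (adjusted p = 0.00444) and the replicate block (adjusted p = 0.00795). Both of these used only the primary cultures of slide 3. Glial and fibroblast markers were higher on slide 3 too, as given above, while macrophage markers ran from -5.89 to -5.59 on slide 3 and -6.17 to -5.50 on slide 4. The part of these shifts in the Abca1 values was not tested.

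Abcg1, which passes cholesterol on to mature lipoprotein particles, was at -2.92, -2.91, -2.57 and -3.04 in passaged spheres and -3.16, -2.07 and -1.52 in primary spheres. TH-MYCN SMG had 2.01, 2.31 and 2.53 and WT SMG 2.04, 2.48 and 2.74. It was well above background in every sphere culture and yet far below every ganglion, and the 2 kinds of ganglion overlapped almost fully. TH-MYCN SMG differed from WT SMG by -0.13, not called (limma adjusted p = 0.334). Primary spheres were 22.9-fold lower than TH-MYCN SMG (log2 difference -4.52 ± 0.18, adjusted p = 5.82e-13), at -4.20 with slide 3 alone and -4.84 with slide 4 alone. After passage the difference of -0.64 did not pass the threshold (adjusted p = 0.104), but 4 of 24 alternatives called it lower. Slide 3 by itself gave a call (-0.97, adjusted p = 0.00976) and slide 4 did not (-0.31, adjusted p = 0.406).

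Nr1h2, the liver X receptor of the list, differed by -0.51 in TH-MYCN SMG and -0.40 in primary spheres, both called. Npc1 and Npc2 together release cholesterol from lysosomes after uptake. Npc2 was at 3.10, 3.32, 2.97 and 3.18 in passaged spheres and 3.03, 3.18 and 3.36 in primary spheres, against 3.50, 3.64 and 3.85 in TH-MYCN SMG and 3.64, 3.79 and 4.13 in WT SMG. All primary cultures lay below all TH-MYCN SMG (-0.45 ± 0.06, limma adjusted p = 3.26e-06), every sphere culture lay below all WT SMG too, and passaged cultures also lay below all TH-MYCN SMG. The 2 kinds of ganglion overlapped, with a difference of -0.14 that was not called (adjusted p = 0.112), and so did the 2 kinds of sphere. Npc1 was called lower in the first 2 comparisons, at -0.36 and -0.69. In TH-MYCN SMG the Npc1 difference was not called with the median gene set to no difference (-0.14, adjusted p = 0.328) or within slide 1 (-0.18, adjusted p = 0.424). Neither Npc gene was called after passage.

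Neighbouring pathways gave further values, to be read against all genes tested. In TH-MYCN SMG 21.9% of all genes were called higher and 43.8% lower. In primary spheres it was 50.3% higher and 32.9% lower, and after passage 5.13% higher and 6.43% lower. Of 13 fatty acid synthesis genes 8 were called lower and none higher in TH-MYCN SMG, with a median of -0.68. The largest differences were in Scd1, a stearoyl-CoA desaturase (-1.28, adjusted p = 6.83e-05), Me1, the cytosolic malic enzyme (-0.97), and Acss2, an acetyl-CoA synthetase (-0.95). In primary spheres 6 were called higher and 5 lower, led by Me1 (-2.87), Scd1 (-1.39) and Fads2, a fatty acid desaturase (1.30). After passage Scd1 (-0.91), Lpin1 (-0.59) and Acss2 (-0.53) were called lower. The 7 adipocyte markers tested were not called in TH-MYCN SMG, with a median difference of -1.15, and 6 were called lower in primary spheres. Of the 8 adipocyte markers, 2 were well above background in each primary culture, and those kept through the ganglia alone could only be called lower. Means of all 8 adipocyte markers varied widely, from -4.68 to -0.45 in TH-MYCN SMG and from -3.25 to 0.38 in WT SMG. Their part in the fatty acid values was not tested.

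Of 13 other isoprenoid and sterol genes, 4 were called higher and 6 lower in TH-MYCN SMG. The lower share is near that of all genes. Pdss1, which makes the side chain of ubiquinone, was higher (1.06, adjusted p = 2.44e-05), and Cyb5r3 (-0.73) and Dhdds, which makes dolichol chains (-0.70), were lower. In primary spheres 8 were called higher and 3 lower, with Tmem97 at 1.72, Pdss1 at 1.49 and Lbr, a sterol reductase of the nuclear membrane, at 1.41. No gene of this list was called after passage.

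Among 12 genes of SREBP processing and sterol-regulated degradation, 2 were called higher and 4 lower in TH-MYCN SMG. Among the lower genes was Sec23a, a coat protein of vesicles to the Golgi (-0.63). In primary spheres 9 were called higher and 1 lower, among them Ufd1 at 0.83 and Mbtps2, a protease that cuts SREBP, at 0.79. After passage none was called.

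Of 15 genes of sterol esterification, oxysterols and trafficking, 1 was called higher and 9 lower in TH-MYCN SMG, among them Abca7 (-1.06), Nceh1, a cholesteryl ester hydrolase (-0.87), and Cyp46a1, the neuronal cholesterol hydroxylase (-0.84). In primary spheres 3 of 14 were called higher and 9 lower. Cyp7b1, an oxysterol hydroxylase, was not well above background on any array of primary spheres and was at least 15.3-fold lower than in TH-MYCN SMG. Kept through the TH-MYCN SMG alone, it could only be called lower. Its limma call (adjusted p = 1.39e-11) rests on the measured values and not on that bound. The bound takes, for each sphere array, the higher of the dimmest level that counted as well above background and the gene's own level. Abca7 was lower by -2.57 on the log2 scale and Mylip, a ubiquitin ligase under liver X receptor control, by -1.79. After passage Abca7 (-0.59, adjusted p = 0.0163) was the 1 gene of 13 called.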

How the data were processed

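The 32 arrays measured 28 samples, and the members, gene lists and tests were chosen with earlier results of these data known. The authors' deposited scanner files give an intensity for each spot, the background-subtracted processed signal of Agilent Feature Extraction 11.5.1.1, per the file headers. RNA was amplified from 1 of 2 input amounts, per the labels' protocols, with no statement of which sample had which. Each signal was taken as log2 minus the array's 75th percentile over 59305 non-control spots. Spots with outlier flags (109 to 211 per array) were dropped, spots of a probe averaged, and the 2 arrays of a passaged culture averaged, so that n = 4. A probe was kept if well above background in at least 4 samples of the comparison, with the probe of highest mean for each gene. Of 55681 probes, 27235 were named by matching the transcript accession in the files, without versions, to RefSeq genes of GRCm38.p6, and the other 28446 stayed unnamed and out of the tests. The comparisons were fitted with limma 3.58.1 in R 4.3.3 (lmFit and eBayes, without a block), checked first on simulated data, and p-values were adjusted by Benjamini-Hochberg over all genes tested. Intervals are 95% intervals of limma. Nothing says that all samples came from separate mice, so that the p-values measure only the spread between these samples, and for arrays their number limits the precision.

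Values by sample were given for a fixed panel of 12 genes and for the 2 genes with the largest called rise and the 2 with the largest called fall in each comparison, which added Mvd, Lss, Msmo1 and Nsdhl. Insig2 was added after its values were seen. Of each related list, up to 3 called genes with the largest differences were named, apart from genes that are not reported here. Samples with the same replicate number did not all deviate together (correlations from -0.01 to 0.37, -0.08 to 0.15 and -0.01 to 0.21 in the 3 comparisons). TH-MYCN ganglia 2, 3, 7 and 8 did correlate best with the WT ganglion of their number. So did primary culture 4 with its TH-MYCN ganglion, and passaged cultures 2, 3 and 4 with their primary culture. The numbers were not taken to pair samples in the main test, and a replicate block was an alternative. The alternatives were another background correction, quantile normalization, the median gene set to no difference, other filters, each probe by itself, the slide as a block or within slides, a replicate block, all groups in one fit, the authors' value table and leaving out each sample. Fits with primary spheres of 1 slide were added after seeing the data. For the background alternative the median spot signal was used (normexp, offset 50), in place of the mean signal.

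The authors' deposited value table is on a log2 scale. Of its entries 99.9% lay within 0.05 of the log2 signal above less a constant for each probe, so that its scale and direction are known, and what the constant stands for is not. Its column medians were 0.31, 0.15, 0.28, 0.30, 0.51, 0.39, 0.45 and 0.35 for the arrays of passaged spheres. They were 0.02, 0.06, 0.07, 0.04, -0.08, 0.01, -0.05 and -0.07 in primary spheres, and -0.13, -0.11, -0.20, -0.33, -0.32, -0.28, -0.39 and -0.24 in TH-MYCN SMG. In WT SMG they were -0.02, -0.24, -0.16, -0.27, -0.48, -0.34, -0.36 and -0.37.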

Additional observations from a re-analysis of the deposited data

Results flagged for a closer look

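In 116 groups of samples, 1 for each gene and group, a sample far from the others of its group was looked for by the gap to its nearest neighbour over the range of the group, a measure that chance passes in about 1 of 20 groups. It was passed by 6 values, a number close to what that rate gives for 116 groups. Passaged culture 3 had a Mvd level of 1.66, with the nearest culture at 2.06, and a Dhcr7 level of 1.99, with the nearest at 1.83. Passaged culture 1 had a Sqle level of 5.05, with the nearest at 5.40, and an Insig2 level of 2.17, with the nearest at 2.00. Primary culture 8 had a Mvk level of 4.82, with the nearest at 5.11. WT ganglion 5 had a Npc2 level of 4.13, with the nearest at 3.87. All 6 values were well above background.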

How the results depend on the processing

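For TH-MYCN SMG, the count of genes called lower was 14 within slide 1 and 18 to 25 under the other alternatives, and the count called higher was 0 with all 4 groups in one fit and 1 otherwise. Within slide 1, 4725 of the 15826 genes tested were called lower. For primary spheres, quantile normalization left 11 genes called higher, where 6679 of the 15637 genes tested were. Ebp (-0.10), Hmgcs1 (-0.18), Msmo1 (-0.12), Mvk (-0.13), Pmvk (-0.023) and Scap (-0.044) then lay below 0 without a call. The cause was not tested. The other alternatives gave 14 to 21 higher and 5 to 6 lower. After passage, 4 genes were called lower with all 4 groups in one fit, 3 within slide 4, 9 to 14 under the other alternatives and 6 to 13 with 1 sample left out, the lowest without passaged culture 4. Leaving out 1 sample gave 20 to 24 lower in TH-MYCN SMG and 19 to 21 higher in primary spheres. With the replicate block, a pairing that the correlations bore out for some samples only, the counts were 1 higher and 24 lower, 20 higher and 6 lower, and 0 higher and 10 lower. After passage that fit kept only primary cultures 1 to 4, all of them on slide 3. The fall of Dhcr7 in TH-MYCN SMG lost its call under 19 alternatives and that of Ebp under 9. Over all genes tested after passage, 730 were called higher and 915 lower, against 479 and 500 with normexp, 503 and 1049 with quantile normalization, 4091 and 1195 with no filter on dim probes (77.4% of calls higher), 271 and 757 within slide 3, 469 and 487 within slide 4 and 219 and 714 with the replicate block. Those counts were 255 and 555 without passaged culture 2, 263 and 514 without passaged culture 4, 425 and 677 without primary culture 4 and 445 and 728 without primary culture 7. With all 4 groups in one fit they were 676 and 992. Dim signal limits Abca1, which was not well above background in 4 of 8 primary and 3 of 4 passaged cultures. With each probe by itself, 8412 probes passed upward and 13193 downward for TH-MYCN SMG, and 19172 upward and 9076 downward for primary spheres, with more features tested.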
